A study of Capra hircus with 6 samples.

Results

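Hypothalamic glial cells and neurons exchange growth factors that are known to act on the neurons that secrete gonadotropin-releasing hormone (GnRH). The genes described here code for ligands, receptors and an adhesion molecule of that exchange. They were listed by name, by a rule that uses no measured value, though earlier results of these data were known: TGFA, EGFR, ERBB2, ERBB4, NRG1, TGFB1, TGFB2, TGFBR1, FGFR1 and SYNCAM1. Of the 10 symbols, 9 matched a gene of the mRNA table, which holds 20225 genes. The 9 genes had 17 of its 30679 transcripts. SYNCAM1 matched no symbol or synonym of the goat gene table, and the gene CADM1, for which SynCAM1 is a name in general use, is described with the adhesion genes.

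As background, astrocytes and tanycytes release transforming growth factor alpha (TGFA), which binds the epidermal growth factor receptor EGFR, and neuregulin 1 (NRG1) binds ERBB4. Both receptors can pair with ERBB2, which has no ligand of its own. In astrocytes these receptors are known to lead to the release of prostaglandin E2, to which GnRH neurons respond. TGF-beta 1 and 2 (TGFB1, TGFB2) signal through TGFBR1 and TGFBR2, and FGFR1, a receptor of fibroblast growth factors (FGF), is needed for the development of GnRH neurons. SynCAM1 is a cell adhesion molecule that lies at contacts between glia and neurons.

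Hypothalamus was taken from 3 pubertal female Anhuai goats of 4.5 to 5 months, killed in the late follicular phase, and from 3 prepubertal female Anhuai goats of 2.5 to 3 months. The goats were kept under the same conditions, the labels name no treatment or genotype, and each goat, numbered here by its replicate, gave 1 library. Stage and age cannot be told apart in this design. Expression is given in FPKM, fragments scaled by transcript length and by the mapped fragments of the library, summed over the transcripts of a gene. The FPKM values carry no read counts per gene, so no counting error is given for them, and the read totals that the study reports per library were not used here. The stages were compared with limma on log2(FPKM + 1), with Benjamini-Hochberg adjustment over the 16397 genes with a mean of at least 0.1 FPKM.

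The tissue labels were checked on marker genes. All 8 astrocyte markers were above 0 in every library, and their sum lay between 6840 and 7184 FPKM in pubertal and between 6875 and 7298 FPKM in prepubertal goats. The largest parts were GFAP and S100B, with means of 2431 and 1836 FPKM. Single markers differed more than the sum. ALDH1L1 was higher without overlap in pubertal goats (means 15.2 and 9.42 FPKM) and ALDOC lower without overlap (780 and 903 FPKM). The stages of the other astrocyte markers overlapped. Of the 11 hypothalamic markers, 7 were above 0 in the 6 libraries, among them GNRH1, AGRP, POMC and PMCH. Their levels were uneven between libraries, with 5.69 to 175.8 FPKM for AGRP, 22.9 to 428.6 FPKM for POMC and 673 to 2173 FPKM for PMCH. The stages overlapped for AGRP (log2 fold change -2.15), POMC (1.83) and PMCH (-0.53). AVP was listed at 0 in all libraries, and OXT, TRH and HCRT were not analysed here. A value of 0 was not read as absence, since MBP, a main myelin gene, was listed at 0 in prepubertal replicate 1 and lay between 425.3 and 3333 FPKM in the other libraries. Pubertal replicate 3 stood apart. TTR, a choroid plexus gene, reached 309.0 FPKM there, while the other libraries had 1.14 to 53.4 FPKM. ACTA2 of smooth muscle was at 70.7 FPKM there and between 11.6 and 18.0 FPKM elsewhere, and the pituitary gene GH1 was at 7.79 FPKM there and listed at 0 in the other libraries. CGA, the pituitary hormone alpha subunit, had 50.7 ± 11.5 FPKM (SD, n = 3) in the pubertal goats and 7.85 ± 8.80 FPKM (SD, n = 3) in prepubertal goats. In bulk tissue, a change in the number of cells of a type and a change in RNA per cell cannot be told apart.

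All 9 genes were measured in every goat, at levels between 2.02 and 19.6 FPKM, and all 9 passed the minimum. None had an adjusted p-value under 0.05 in limma (0 of 9), where 0.0% of all genes passed. The unadjusted p-value was under 0.05 for 0 of the 9 as well, beside 3.51% of all genes higher and 1.65% lower in pubertal goats. That count was 2 (TGFB1 and FGFR1, both higher) without pubertal replicate 1, where 5.98% of all genes were higher and 7.56% lower, and 1 (NRG1, lower) without pubertal replicate 2, where 4.62% were higher and 2.33% lower. Log2 fold changes of the 9 genes ran from -0.22 to 0.27 with a median of 0.03, against -0.001 over all genes tested, and 5 of the 9 were above 0. Their libraries separated by stage for 1 gene, EGFR, higher in pubertal goats. Among all genes, 5.91% were separated with the pubertal goats higher and 3.84% with the pubertal goats lower.

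**Figure D1:**
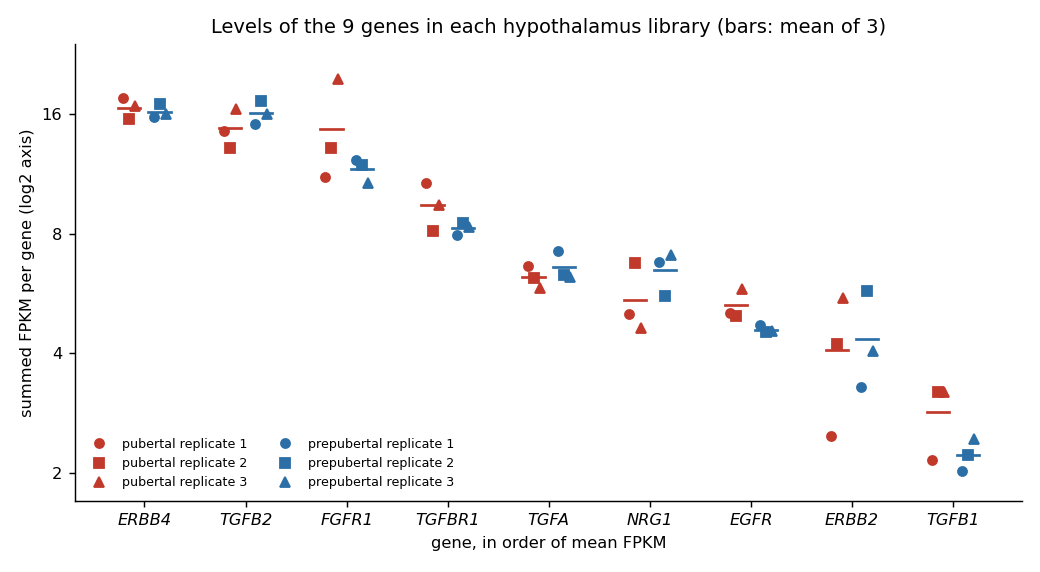
Summed FPKM (log2 axis) of the 9 genes in each library, with pubertal goats in red, prepubertal goats in blue, a symbol shape for each replicate and a bar for the mean of 3. ERBB4 is the highest on average and TGFB1 the lowest, and the colours separate only for EGFR.

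By mean FPKM over the 6 libraries, which is a level per length of transcript, the order was ERBB4 (16.4), TGFB2 (15.4), FGFR1 (13.1), TGFBR1 (8.85), TGFA (6.40), NRG1 (5.96), EGFR (4.93), ERBB2 (4.22) and TGFB1 (2.54). Only TGFBR1 and TGFA were neighbours in this order whose ranges over the 6 libraries did not overlap. FGFR1 was above TGFBR1 and ERBB2 above TGFB1 in 6 of 6 libraries. ERBB4 over TGFB2, TGFB2 over FGFR1 and EGFR over ERBB2 held in 5 of 6 libraries, and TGFA over NRG1 and NRG1 over EGFR in 4 of 6. The genes also differed in how much they varied between goats. The highest library was 1.12 times the lowest for ERBB4, 1.24 times for TGFA, 1.83 times for FGFR1 and 2.31 times for ERBB2.

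Among the ligands of the ERBB receptors, TGFA had 6.61, 6.19 and 5.84 FPKM in pubertal goats 1 to 3 against 7.22, 6.31 and 6.23 FPKM in prepubertal goats 1 to 3. The stages overlapped. The means were 6.21 ± 0.385 and 6.59 ± 0.550 FPKM (SD, n = 3 each), with a log2 fold change of -0.07 (95% interval -0.32 to 0.18, limma adjusted p = 0.970). HBEGF, which binds EGFR and ERBB4, had 9.04, 7.45 and 7.95 FPKM in pubertal goats 1 to 3 against 6.77, 7.02 and 5.94 FPKM in prepubertal goats 1 to 3. Its stages did not overlap, and its log2 fold change was 0.27 (95% interval 0.002 to 0.54, limma adjusted p = 0.962). HBEGF was above TGFA in 3 of 3 pubertal and in 1 of 3 prepubertal goats. It was the only EGF family ligand of the 9 tested with an unadjusted p-value under 0.05, against 3.51% of all genes higher. In 10 of 14 alternatives, among them the replicate block, quantile or median scaling and no minimum FPKM, HBEGF had none.

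Together, the EGFR ligands TGFA, HBEGF, BTC, AREG, EREG and EGF had 19.7 ± 2.65 FPKM (SD, n = 3) in the pubertal goats and 18.5 ± 1.25 FPKM (SD, n = 3) in prepubertal goats. HBEGF made up 39.8%, 42.3% and 42.1% of this sum in pubertal and 34.9%, 37.1% and 34.8% in prepubertal replicates 1, 2 and 3. The share of HBEGF was thus higher in every pubertal goat than in any prepubertal goat. TGFA made up between 29.1% and 35.1% in pubertal and between 33.4% and 37.2% in prepubertal goats. The other main ligand, BTC, had 4.88 ± 1.48 and 4.87 ± 0.228 FPKM (SD, n = 3 each). These shares were computed after the values were seen and were not tested. AREG and EGF had less than 0.45 FPKM in every library, and EREG lay under the minimum.

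NRG1, a ligand of ERBB3 and ERBB4, had 5.02, 6.73 and 4.62 FPKM in pubertal goats 1 to 3 against 6.77, 5.57 and 7.05 FPKM in prepubertal goats 1 to 3. Pubertal replicate 2 lay among the prepubertal goats, so the stages overlapped. The means were 5.46 ± 1.12 and 6.46 ± 0.788 FPKM (SD, n = 3 each), with a log2 fold change of -0.22 (95% interval -0.57 to 0.13, limma adjusted p = 0.962). The other neuregulins also bind ERBB receptors. NRG2 had 4.42 ± 0.292 and 4.31 ± 0.256 FPKM, NRG3 had 5.89 ± 0.297 and 5.64 ± 0.734 FPKM, and NRG4 had 5.65 ± 1.33 and 6.36 ± 1.25 FPKM in pubertal and prepubertal goats (SD, n = 3 each). The 4 neuregulins summed to 21.4 ± 1.51 FPKM (SD, n = 3) in the pubertal goats and 22.8 ± 2.40 FPKM (SD, n = 3) in prepubertal goats.

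Of the receptors, EGFR had 5.06, 4.96 and 5.80 FPKM in pubertal goats 1 to 3 against 4.70, 4.52 and 4.54 FPKM in prepubertal goats 1 to 3. All pubertal goats lay above all prepubertal goats, with 4.96 FPKM as the lowest pubertal and 4.70 FPKM as the highest prepubertal value. The means were 5.27 ± 0.455 and 4.59 ± 0.0964 FPKM (SD, n = 3 each), which gave a log2 fold change of 0.16 (95% interval -0.09 to 0.41, limma adjusted p = 0.962). The log2 fold change was 0.10 after quantile scaling of the libraries. With 3 goats per stage, the smallest p-value that exact permutation can give is 0.1.

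ERBB4 was the steadiest of the 9 genes, with 17.5, 15.6 and 16.7 FPKM in pubertal goats 1 to 3 against 15.7, 16.9 and 16.02 FPKM in prepubertal goats 1 to 3. The stages overlapped, and its log2 fold change was 0.03 (95% interval -0.18 to 0.24, limma adjusted p = 0.988). ERBB2 had 2.48, 4.23 and 5.52 FPKM in pubertal goats 1 to 3 against 3.29, 5.72 and 4.05 FPKM in prepubertal goats 1 to 3. Both stages spanned a wide range, and the log2 fold change of -0.10 had a 95% interval from -0.68 to 0.48 (adjusted p = 0.986 from limma). Its direction rested on single goats, with 0.15 without pubertal replicate 1 and 0.08 without prepubertal replicate 2.

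ERBB3, the fourth receptor and a gene with high expression in oligodendrocytes, had 17.1 ± 1.58 FPKM (SD, n = 3) in the pubertal goats and 14.4 ± 2.66 FPKM (SD, n = 3) in prepubertal goats, and the stages overlapped. Of the oligodendrocyte markers, the 4 above 0 in all libraries (MOG, MAG, MOBP and CNP) summed to 998 to 1331 FPKM in the pubertal and 921 to 1416 FPKM in the prepubertal goats. The 4 receptors summed to between 37.5 and 45.3 FPKM per library. ERBB4 made up between 36.9% and 43.1% and ERBB3 between 30.8% and 42.5% of this sum, against 10.8% to 12.8% for EGFR and 5.70% to 14.6% for ERBB2.

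**Figure D2:**
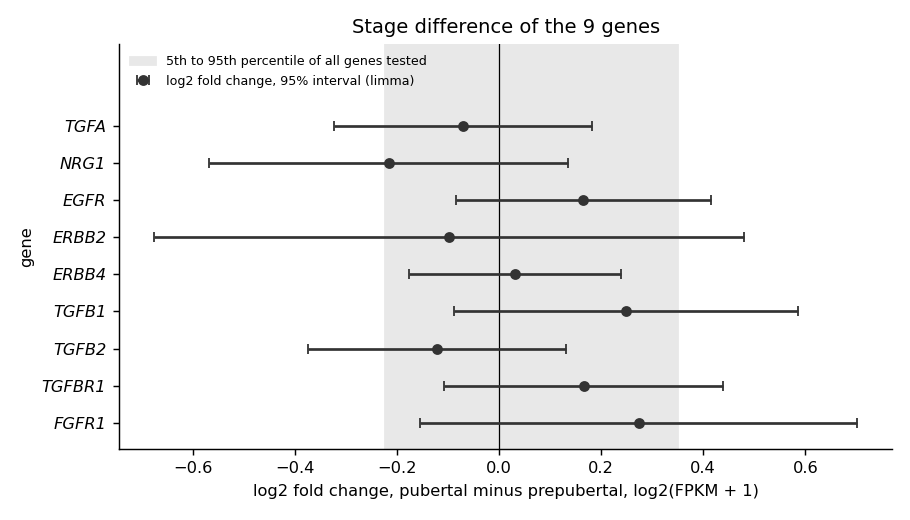
Log2 fold change of the 9 genes, pubertal minus prepubertal, on log2(FPKM + 1), with its 95% interval from limma, over a grey band for the 5th to 95th percentile of all genes tested (-0.22 to 0.35). All 9 intervals include 0, and that of ERBB2 is the widest.

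TGFB2 was the main ligand of the TGF-beta genes. It had 14.5, 13.2 and 16.5 FPKM in pubertal goats 1 to 3 against 15.1, 17.2 and 15.96 FPKM in prepubertal goats 1 to 3, and the stages overlapped. Its log2 fold change was -0.12 (95% interval -0.37 to 0.13, limma adjusted p = 0.962). TGFB1 had 2.16, 3.20 and 3.20 FPKM in pubertal goats 1 to 3 against 2.02, 2.21 and 2.43 FPKM in prepubertal goats 1 to 3. Pubertal replicate 1 lay within the prepubertal range. The means were 2.85 ± 0.601 and 2.22 ± 0.207 FPKM (SD, n = 3 each), which gave a log2 fold change of 0.25 (95% interval -0.09 to 0.58, limma adjusted p = 0.962). Of the summed FPKM of TGFB1, TGFB2 and TGFB3, TGFB2 held 72.4%, 70.0% and 65.4% in pubertal and 75.9%, 80.0% and 74.3% in prepubertal replicates 1, 2 and 3. The share was lower in each pubertal goat than in each prepubertal goat, a comparison that was made after the values were seen and was not tested.

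TGFBR1, the type I receptor of the TGF-beta ligands, had 10.7, 8.14 and 9.45 FPKM in pubertal goats 1 to 3 against 7.95, 8.52 and 8.33 FPKM in prepubertal goats 1 to 3. The prepubertal goats were close to each other, and pubertal replicate 2 lay among them. The log2 fold change was 0.17 (95% interval -0.11 to 0.44, limma adjusted p = 0.962).

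FGFR1 had 11.1, 13.1 and 19.6 FPKM in pubertal goats 1 to 3 against 12.3, 11.9 and 10.7 FPKM in prepubertal goats 1 to 3. Pubertal replicate 3 was the highest of the 6 libraries, and pubertal replicate 1 lay within the prepubertal range. The means were 14.6 ± 4.45 and 11.6 ± 0.810 FPKM (SD, n = 3 each), with a log2 fold change of 0.27 (95% interval -0.15 to 0.70, limma adjusted p = 0.962). Without pubertal replicate 3 the log2 fold change was 0.055, and without pubertal replicate 1 it was 0.44. FGFR2 was the more abundant receptor, at 51.6 ± 3.40 and 46.9 ± 2.53 FPKM (SD, n = 3 each), while FGFR4 had at most 0.282 FPKM. FGFR3 was not analysed here.

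Of the 9 genes, 4 had more than 1 transcript in the table. ERBB4 had 4, with lengths of 12112, 12082, 12064 and 12034 nt, which form a pair of steps of 48 and 30 nt. As background, ERBB4 is spliced in other mammals at a cytoplasmic exon, which holds a binding site for a lipid kinase, and at a juxtamembrane site, which sets whether ADAM17 can cleave the receptor. The sequences were not read here, so the steps were not assigned to these sites. The transcripts longer by 48 nt (XM_005676492.2 and XM_005676493.2) held 49.1%, 49.7% and 46.1% of the ERBB4 FPKM in pubertal and 39.9%, 30.7% and 47.0% in prepubertal replicates 1, 2 and 3. The means were 48.3% ± 1.91 and 39.2% ± 8.19 (SD, n = 3 each), and prepubertal replicate 3 lay among the pubertal goats (difference of 9.12 percentage points, exact two-sided permutation test, p = 0.2). The transcripts longer by 30 nt (XM_005676492.2 and XM_005676494.2) held 69.6% ± 7.84 in pubertal and 69.3% ± 0.412 in prepubertal goats (SD, n = 3 each, exact two-sided permutation test, p = 1). The shares were defined after the transcript values were seen. The authors' software divided the reads among transcripts that share nearly all of their sequence, so that the share of a transcript is less certain than the sum of the gene.

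**Figure D3:**
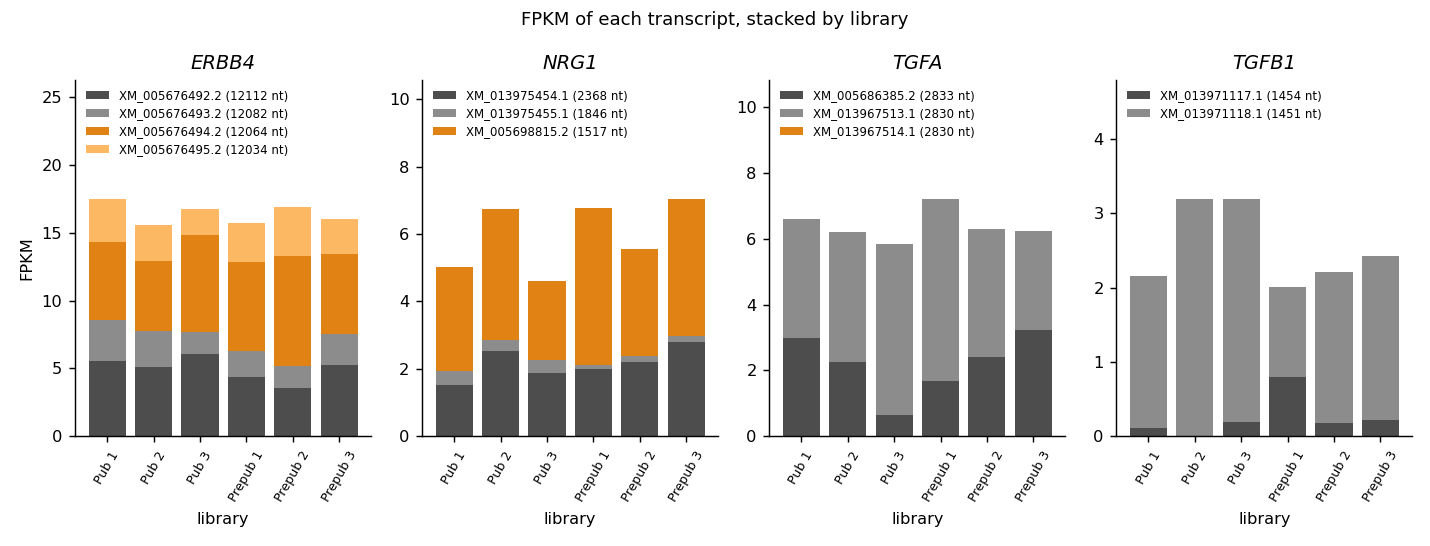
FPKM of each transcript of ERBB4, NRG1, TGFA and TGFB1, stacked by library, with identifier and length in nt. The total of ERBB4 lies between 15.6 and 17.5 FPKM in all 6 libraries while the dark part, the transcripts longer by 48 nt, is smallest in prepubertal replicate 2.

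NRG1 had 3 transcripts. XM_005698815.2 held between 51.0% and 68.5% and XM_013975454.1 between 29.4% and 40.7% of its FPKM over the 6 libraries. The least abundant, XM_013975455.1, had 0.429, 0.305 and 0.384 FPKM in pubertal goats 1 to 3 against 0.143, 0.175 and 0.181 FPKM in prepubertal goats 1 to 3. All pubertal goats lay above all prepubertal goats for this transcript, opposite to the direction of the gene, and the log2 fold change was 0.23 (standard error, SE, 0.13, limma adjusted p = 0.972 over 23821 transcripts). The pseudocount of 1 is larger than these values, whose means were 0.372 and 0.166 FPKM, so this log2 fold change understates their ratio. Of the 16 transcripts of the 9 genes that were tested, 0 had an adjusted p-value under 0.05, where 0.0% of all transcripts passed in limma. An unadjusted p-value under 0.05 was found for 0 as well, and no share over all transcripts is given for that threshold. The stages did not overlap for 2 of the 16, the transcript of EGFR and this one of NRG1, both higher. Among all transcripts tested this was so for 5.52% with the pubertal goats higher and for 4.04% with the pubertal goats lower.

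The main TGFA transcripts, XM_005686385.2 and XM_013967513.1, differ by 3 nt in length. XM_005686385.2 had 3.0, 2.27 and 0.639 FPKM in pubertal goats 1 to 3 against 1.67, 2.42 and 3.24 FPKM in prepubertal goats 1 to 3, and the stages overlapped. XM_013967513.1 ranged from 2.99 to 5.55 FPKM and was lowest in prepubertal replicate 3, where XM_005686385.2 was highest. The sum of the gene varied less than either transcript. The other TGFA transcript, XM_013967514.1, was listed at or near 0 and was not tested. TGFB1 had XM_013971118.1 as its main transcript, with at least 60.2% of its FPKM, the share in prepubertal replicate 1.

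The other genes of the same pathways were taken from 11 lists with 121 different symbols, among them the 9 genes above. In the lists 116 genes were tested. At an adjusted p-value under 0.05 there were 0 of the 116 in limma. At an unadjusted p-value under 0.05, 10 genes (8.62%) were higher and 0 were lower in pubertal goats, against 3.51% and 1.65% of all genes. The 10 were HBEGF, SHC1, PTGER3, DCN, TGFBR2, ENG, SMAD6, FGF1, SDC4 and CNTN2. The stages did not overlap with the pubertal goats higher for 16 genes (13.8%, against 5.91% of all genes). They did not overlap with the pubertal goats lower for 2 (1.72%, against 3.84%). The count of 10 depended on the goats included. Without pubertal replicate 3 it was 3 (2.59%, against 2.70% of all genes) with 1 lower, and without prepubertal replicate 1 it was 3 (2.59%, against 2.05%) with 0 lower. Without prepubertal replicate 2 it was 4 (3.45%, against 2.82%) with 0 lower, and without prepubertal replicate 3 it was 5 (4.31%, against 2.94%) with 1 lower. Without pubertal replicate 1 it was 12 (10.3%, against 5.98%) with 4 lower (3.45%, against 7.56%), and without pubertal replicate 2 it was 9 (7.76%, against 4.62%) with 1 lower. Of the 10 genes, DCN kept its unadjusted p-value under 0.05 in 14 of 14 alternatives, SHC1 in 12, TGFBR2, ENG and SMAD6 in 11 each, FGF1 in 9, SDC4 in 8, CNTN2 in 6, and HBEGF and PTGER3 in 4 each.

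**Figure D4:**
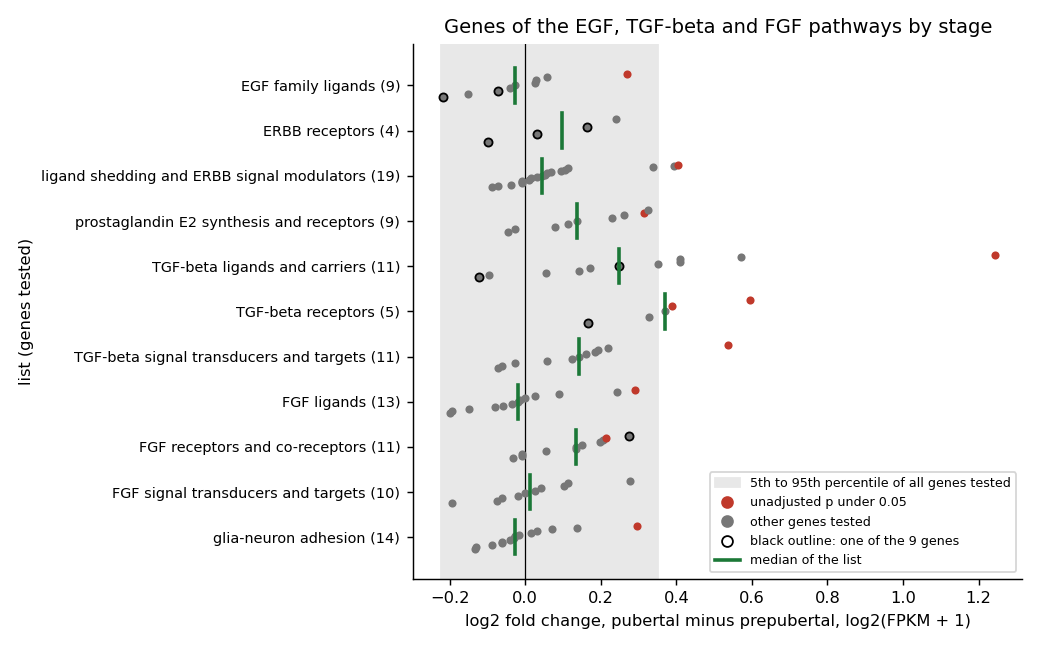
Log2 fold change, pubertal minus prepubertal, of each tested gene of the 11 lists, with the median of the list in green, genes with an unadjusted p-value under 0.05 in red and the 9 genes outlined in black. The grey band is the 5th to 95th percentile of all genes tested, and the TGF-beta receptors have the highest median, 0.37.

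Among the genes that release the ligands or carry the ERBB signal, 1 of 19 had an unadjusted p-value under 0.05, against 3.51% of all genes higher. This was SHC1, an adaptor of ERBB receptors, with 7.10, 7.64 and 10.3 FPKM in pubertal goats 1 to 3 against 5.73, 6.21 and 6.01 FPKM in prepubertal goats 1 to 3 (log2 fold change 0.40 with SE 0.14, limma adjusted p = 0.870). Its stages did not overlap. The stages also did not overlap for LRIG3, a gene of the LRIG family, with 5.53 FPKM in pubertal replicate 3 and 2.24 to 2.94 FPKM elsewhere. ADAM17, the protease that sheds TGFA, had 8.54 ± 1.12 and 7.78 ± 0.0739 FPKM (SD, n = 3 each), and ADAM10 had 35.5 ± 5.21 and 34.2 ± 2.82 FPKM (SD, n = 3 each), both with overlapping stages. MAPK3, a kinase of the ERK pathway, was the most abundant gene of the list, at 90.5 ± 6.30 and 89.7 ± 5.85 FPKM (SD, n = 3 each).

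Of the 9 genes for prostaglandin E2 synthesis and receptors, 7 had a log2 fold change above 0, against 49.8% of all genes. An unadjusted p-value under 0.05 was found for 1, against 3.51% of all genes higher, and was lost in 10 of 14 alternatives. PTGER3, a prostaglandin E2 receptor, had 8.19, 9.15 and 11.3 FPKM in pubertal goats 1 to 3 against 7.73, 6.69 and 7.86 FPKM in prepubertal goats 1 to 3 (log2 fold change 0.31 with SE 0.13, limma adjusted p = 0.959). Its stages did not overlap. PTGS2, the inducible cyclooxygenase, was low, at 0.918 ± 0.374 and 0.791 ± 0.0559 FPKM (SD, n = 3 each). PTGES3, also a cochaperone, was the most abundant, at 104.4 ± 14.8 and 105.9 ± 8.38 FPKM (SD, n = 3 each).

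All 5 TGF-beta receptor genes had a log2 fold change above 0, against 49.8% of all genes, with a median of 0.37. An unadjusted p-value under 0.05 was found for 2 of the 5, both higher in pubertal goats, against 3.51% of all genes. TGFBR2, the type II receptor, had 14.5, 12.8 and 19.2 FPKM in pubertal goats 1 to 3 against 11.1, 12.4 and 10.9 FPKM in prepubertal goats 1 to 3 (log2 fold change 0.39 with SE 0.15, limma adjusted p = 0.893). ENG, a co-receptor of endothelial cells, had 2.48, 2.77 and 5.45 FPKM in pubertal goats 1 to 3 against 1.69, 1.66 and 2.43 FPKM in prepubertal goats 1 to 3 (log2 fold change 0.59 with SE 0.24, limma adjusted p = 0.938). ACVRL1, another endothelial receptor, had 5.66 ± 1.51 and 4.07 ± 0.0859 FPKM (SD, n = 3 each). The stages of these 3 genes did not overlap, with the pubertal goats higher, against 5.91% of all genes. Without pubertal replicate 3, the median of the list was 0.20 and 0 of the 5 had an unadjusted p-value under 0.05. In that fit 2.70% of all genes were higher and 1.35% lower. Without prepubertal replicate 1, the median was 0.37 and the count also 0, where 2.05% of all genes were higher and 1.0% lower.

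Among the TGF-beta ligands and carriers, DCN, a proteoglycan that binds TGF-beta, had 58.5 ± 24.9 FPKM (SD, n = 3) in the pubertal goats and 23.5 ± 6.49 FPKM (SD, n = 3) in prepubertal goats (log2 fold change 1.24 with SE 0.30, limma adjusted p = 0.733). It had 48.3, 40.3 and 86.9 FPKM in pubertal goats 1 to 3 against 16.1, 28.2 and 26.1 FPKM in prepubertal goats 1 to 3, with no overlap. DCN is also a gene of leptomeningeal fibroblasts. ITGB8, an integrin subunit that activates TGF-beta, was at 50.9 ± 8.39 and 54.0 ± 3.38 FPKM (SD, n = 3 each) and the most abundant of the list by its mean over the 6 libraries. Of the 11 transducers and targets, SMAD6, an inhibitor of the SMAD pathway, had 1.71, 2.09 and 3.59 FPKM in pubertal goats 1 to 3 against 1.55, 1.32 and 1.13 FPKM in prepubertal goats 1 to 3 (log2 fold change 0.54 with SE 0.20, limma adjusted p = 0.883). Its stages did not overlap. SMAD4, the partner of the receptor-activated SMADs, had 18.9 ± 2.45 and 19.7 ± 1.35 FPKM (SD, n = 3 each).

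Markers of vessels and of the leptomeninges were summed for each library. The sum of the 7 endothelial and mural markers measured was 130.1, 116.5 and 218.6 FPKM in pubertal and 88.3, 111.1 and 104.7 FPKM in prepubertal replicates 1, 2 and 3. The sum of the 6 leptomeningeal fibroblast markers was 190.9, 161.2 and 317.5 FPKM in pubertal and 100.7, 136.2 and 134.2 FPKM in prepubertal replicates 1, 2 and 3. DCN is 1 of these 6. All 7 and all 6 markers were above 0 in every library. The stages did not overlap for 3 of the 7 (VWF, RGS5 and ACTA2) and 4 of the 6 (COL1A1, COL1A2, COL3A1 and DCN). All of these were higher in pubertal goats, against 5.91% of all genes. PECAM1, CDH5, FLT1 and PDGFRB overlapped, as did LUM and PDGFRA, the last with a log2 fold change of -0.004. The largest parts of the endothelial and mural sum were RGS5 and ACTA2, with means of 63.6 and 23.7 FPKM. Those of the leptomeningeal fibroblast sum were PDGFRA, DCN and COL1A2, with means of 56.5, 41.0 and 40.0 FPKM. Both marker sums were higher in every pubertal goat than in any prepubertal goat and highest in pubertal replicate 3. FGFR1, TGFBR2, ENG, ACVRL1, SMAD6, SHC1, LRIG3, PTGER3 and DCN were also highest there. Of the other genes with an unadjusted p-value under 0.05, HBEGF, FGF1 and SDC4 were highest in pubertal replicate 1 and CNTN2 in pubertal replicate 2. The part of these cell types in the values of the genes was not tested. EGFR was highest in pubertal replicate 3 too, at 5.80 FPKM, and its log2 fold change was 0.11 without that library.

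**Figure D5:**
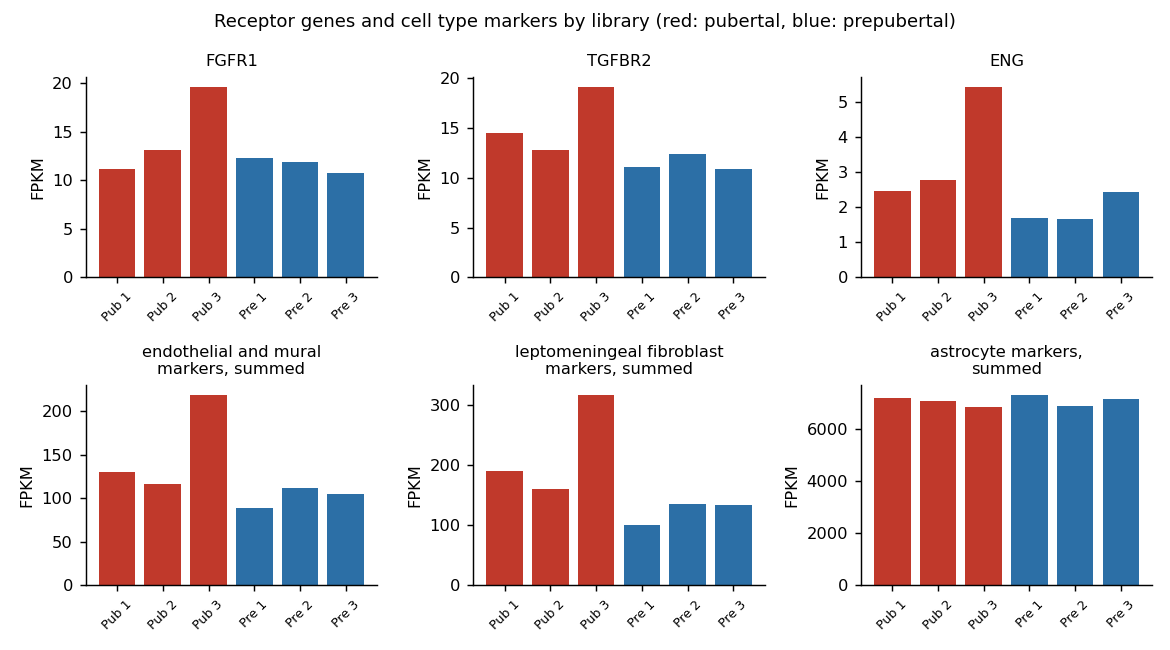
FPKM by library (bars from 0) of FGFR1, TGFBR2 and ENG and the summed FPKM of endothelial and mural, leptomeningeal fibroblast and astrocyte markers, with pubertal goats in red and prepubertal goats in blue. Pubertal replicate 3 is highest in the 3 genes and in the first 2 marker sums, while the astrocyte sum lies between 6840 and 7298 FPKM.

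FGF1, a ligand of all FGF receptors, had 56.1, 47.2 and 43.2 FPKM in pubertal goats 1 to 3 against 42.1, 36.5 and 40.2 FPKM in prepubertal goats 1 to 3 (log2 fold change 0.29 with SE 0.11, limma adjusted p = 0.921). FGF2, a ligand found in astrocytes, had 32.1, 28.7 and 34.9 FPKM in pubertal goats 1 to 3 against 35.5, 37.6 and 36.4 FPKM in prepubertal goats 1 to 3 (log2 fold change -0.19 with SE 0.09, limma adjusted p = 0.962). The stages of FGF1 and of FGF2 did not overlap, in opposite directions. FGF13, which acts inside the cell and not on the receptors, was the most abundant of the list, at 55.3 ± 9.33 and 58.0 ± 1.04 FPKM (SD, n = 3 each), and FGF8 had at most 0.477 FPKM. SPRY2, a feedback inhibitor of FGF signalling, had 14.8, 14.5 and 14.6 FPKM in pubertal goats 1 to 3 against 18.3, 17.3 and 15.2 FPKM in prepubertal goats 1 to 3, with no overlap (log2 fold change -0.19, limma adjusted p = 0.962). SPRY4, of the same family, had 2.52 ± 0.0854 and 2.28 ± 0.158 FPKM (SD, n = 3 each), with the pubertal goats higher. Among the co-receptors, SDC4, a heparan sulfate proteoglycan, had 18.2 ± 0.851 and 15.5 ± 0.532 FPKM (SD, n = 3 each, log2 fold change 0.21 with SE 0.09, limma adjusted p = 0.946), with no overlap. SDC1 was lower, at 1.79 ± 0.298 and 1.41 ± 0.0836 FPKM (SD, n = 3 each), also with no overlap. GPC1, a glypican, was the most abundant and ranged from 165.0 to 461.2 FPKM. SPRED1, an inhibitor of RAS signalling, had 22.3 ± 3.28 and 22.6 ± 2.68 FPKM (SD, n = 3 each).

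CADM1 had 80.2, 71.1 and 66.3 FPKM in pubertal goats 1 to 3 against 82.9, 82.5 and 72.5 FPKM in prepubertal goats 1 to 3, above the level of all 9 genes in every library. The stages overlapped, and the log2 fold change was -0.13 (95% interval -0.36 to 0.10, limma adjusted p = 0.962). It had 1 transcript, XM_013969498.1. In the list of 14 genes for adhesion between glia and neurons, 1 had an unadjusted p-value under 0.05, against 3.51% of all genes higher. This was CNTN2, which lies on axons and oligodendrocytes beside the node of Ranvier and kept this call in 6 of 14 alternatives. It had 21.05, 22.9 and 21.5 FPKM in pubertal goats 1 to 3 against 16.5, 15.5 and 21.17 FPKM in prepubertal goats 1 to 3 (log2 fold change 0.30 with SE 0.12, limma adjusted p = 0.958). Prepubertal replicate 3 lay above pubertal replicate 1, so the stages overlapped. CNTN1 was the most abundant, at 177.5 ± 25.4 and 193.7 ± 7.25 FPKM (SD, n = 3 each).

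For each of the 9 genes, the gene of the lists with the most similar log2(FPKM + 1) over the 6 libraries was found among 115 genes by Pearson r. This is a description over 6 libraries, in which each pair of genes shares library and tissue makeup. The values were 0.973 for ERBB4 with ADAM10, 0.924 for TGFB2 with FGF2, 0.980 for FGFR1 with RHBDF1 and 0.909 for TGFBR1 with CBL. They were 0.810 for TGFA with CADM1, 0.811 for NRG1 with CADM3, 0.980 for EGFR with SDC1, 0.919 for ERBB2 with ANOS1 and 0.877 for TGFB1 with SDC3. Each is the highest of 115 values.

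GNRH1 had 13.5, 14.1 and 15.98 FPKM in pubertal goats 1 to 3 against 6.92, 11.6 and 5.34 FPKM in prepubertal goats 1 to 3, with no overlap (adjusted p = 0.779 from limma).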

How the data were processed

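Ribosomal RNA was removed from total RNA of the hypothalamus of 6 goats, and strand-specific libraries were sequenced in pairs. The authors used TopHat for alignment and both Cufflinks 2.1.1 and Scripture for assembly (the Cufflinks version is from the submitters' processing notes) and deposited an FPKM value per mRNA transcript and library. The build is not given in the sources used here, and no coordinates or sequences are printed. The authors' group means, lengths and gene identifiers come from their comparison table, whose fold changes, p-values and q-values, made with Cuffdiff 2.1.1, were not used. The group FPKM equalled the mean of the libraries within 1% for 99.8% of transcripts. The lncRNA values were not used here.

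Transcript FPKM were summed by gene, and 94.4% of 20225 genes matched a symbol of the RefSeq goat table (ARS1.2). A pseudocount of 1 was added before log2, so fold changes of low genes are understated. Genes with a mean of at least 0.1 FPKM were fitted with limma 3.58.1 (R 4.3.3) with a trended prior, two-sided, without covariates, and the threshold was an adjusted p of 0.05. Intervals are 95% intervals of that fit. Read counts per gene are not part of these values, so counting error could not be computed, and the read totals that the study reports were not used here. From 21.4% to 52.7% of all FPKM in a library lay on 1 NKD2 transcript of 150 nt. The median log2(FPKM + 1) of the genes with a mean of at least 1 FPKM lay between 3.80 and 3.83 in the 6 libraries. On simulated data for this comparison (16397 genes, 200 changed), the recovery was 78.0% for a log2 change of 1 and 97.5% for a log2 change of 2. The changed genes had a mean log2 value of at least 1, and normal noise was drawn independently for each gene and library. Changes as small as those of the genes described here were not simulated, so the recovery does not cover them.

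The groups come from the labels. The sources do not say more of the replicates than 1 goat per library, and p-values measure the spread between these goats. The members and lists were chosen with earlier results of these data known. Named were all members and their transcripts, list genes with an unadjusted p under 0.05, or without overlap of the stages and a mean of at least 1 FPKM, the most abundant gene of each list and the most similar gene to each member. GNRH1, other ligands and receptors, and the shares within families were added after values were seen. Alternatives were a pseudocount of 0.1, no minimum or 1 FPKM, quantile or median scaling, no trend, a replicate block, leaving out each library, and transcripts in place of genes. The lists and their called genes under these alternatives, the oligodendrocyte sum without genes listed at 0 and the ERBB4 shares were added after the data were seen.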

Additional observations from a re-analysis of the deposited data

How the results depend on the processing

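Of 137 alternative values for the log2 fold changes of the 9 genes, 127 kept their direction, 10 reversed and 0 passed the adjusted threshold. Many of the 137 could not reverse. Another minimum FPKM, no trend and the replicate block leave the log2 fold change of a gene as it is. For a gene with 1 transcript, so does the use of its most abundant transcript. For the other genes that transcript is counted again as a single transcript. The 127 is thus not a measure of stability. At an unadjusted p under 0.05 there were 0 of the 9 genes except without pubertal replicate 1 (2) and without pubertal replicate 2 (1). The lowest adjusted p from limma was 0.299, for TGFB1 without pubertal replicate 1. Leaving out each library, the log2 fold change of ERBB2 ran from -0.303 to 0.150 (0.078 without prepubertal replicate 2) and that of ERBB4 from -0.006 to 0.073. With the most abundant transcript, TGFA was at 0.047 (XM_013967513.1) and ERBB4 at -0.167 (XM_005676494.2), and single transcripts gave -0.176 (ERBB4 XM_005676495.2), 0.234 (NRG1 XM_013975455.1) and -0.320 (TGFB1 XM_013971117.1). These NRG1 and TGFB1 transcripts lie under 1 FPKM in every library, where the pseudocount of 1 understates fold changes. The cause of the reversals was not tested. Over all genes, 0 had an adjusted p under 0.05 and 846 an unadjusted one in limma. Leaving out each library gave 0 to 4 (4 without pubertal replicate 2) and 500 (without prepubertal replicate 1) to 2220 (without pubertal replicate 1). Of the 846, 575 were higher and 271 lower, against 462 and 377 with quantile scaling. Deviations of same-numbered goats correlated at -0.0286, -0.107 and 0.0876, and those of differently numbered goats at -0.128 to 0.17. Whether same-numbered goats shared a batch is not given in the sources and was not tested. With the replicate block, 1 gene had an adjusted and 847 an unadjusted p under 0.05, and no call of the 9 genes changed. Counting error is not known from FPKM, and 3 goats per stage leave intervals that hold 0 for all 9 genes.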
